A study of Homo sapiens with 2 samples.

Results

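The transcripts described here carry LINC symbols, the names given to long intergenic non-coding RNA genes, and were counted from reads of transcript 3' ends in the human lung adenocarcinoma line A549. Members were all symbols of the form LINC plus a number, or MIR plus letters or digits and HG, with a mean of at least 10 raw counts over both libraries. Of 874 symbols of the LINC form, 141 met the rule, among 13637 symbols of any kind that passed the same limit. A further 220 LINC symbols had counts but stayed under the limit, and 513 had a count of 0 in both libraries. No symbol of the MIR form was among the rows used here at any count, so microRNA host genes under such names were not analysed. RefSeq now names 2 of the LINC symbols as microRNA hosts. A further member, LINC00152 (CYTOR), has the hairpin gene MIR4435-1 within its exons on the same strand in GENCODE 29, outside its shorter RefSeq span. The membership rule used the mean count of both libraries, so the abundance of the members is a description. At the limit, LINC00858 (11 and 9 counts) and LINC00265 (18 and 3) were just inside, and LINC00239 (16 and 3) and LINC00240 (5 and 13) just outside.

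The design has 1 library of A549 cells that received control siRNAs and 1 library of A549 cells that received siRNAs to ADGRF4, an adhesion G protein-coupled receptor. Both cultures had DMEM with serum and antibiotics, and the labels do not give the siRNA sequences or the time after transfection. The series asks how silencing of this receptor alters gene expression. Neither treatment has a replicate, so every difference below is between 2 libraries, no test between treatments is possible, and every range in parentheses after a fold is an exact 95% interval for counting error only. In bulk RNA, fewer cells with a transcript and less of it per cell cannot be told apart.

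The libraries held 10396047 counts (control) and 9825320 counts (ADGRF4 siRNA). ADGRF4 itself had 3 and 1 counts, no more than the floor of 3 counts used for a count of 0, so the silencing could not be checked. Of the epithelial markers, KRT18 had 58990 and 79367 counts, KRT8 13756 and 7529, and EPCAM 75 and 38. Of markers of other cell types, the leukocyte gene PTPRC had 7 and 2 counts, the endothelial gene PECAM1 0 and 1, and the hepatocyte gene ALB 2 and 3. The fibroblast gene COL1A1 had 50 and 45, near the counts of EPCAM. SFTPC, the surfactant protein of alveolar type II cells, had 0 and 2.

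Long non-coding RNAs are transcribed, spliced and polyadenylated like messenger RNAs but are not defined by a protein product. Some act in the nucleus at neighbouring genes, others bind proteins in the cytoplasm, and some carry microRNA hairpins that the nuclear enzyme DROSHA cuts out. A LINC name is provisional. Several such loci were later found to encode short membrane or mitochondrial proteins and were renamed. All 141 members matched a RefSeq entry, and 34 now have another name there. RefSeq lists 130 as long non-coding RNA, 1 as a transcribed pseudogene and 10 as protein-coding. For 2 of those 10, LINC01279 and LINC00950, the later name (CCDC80 and TMEM8B) has a row of its own in the count table, so the LINC row covers part of a merged gene.

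The best-read member that was lower after ADGRF4 siRNA was LINC00657, now NORAD, a cytoplasmic RNA that binds the Pumilio proteins through repeats of the element TGTANATA (N is any base). Its longest GENCODE transcript has 5339 bases and holds 15 copies of this element on the sense strand, 2.81 per 1000 bases. Among 12645 transcripts of at least 1000 bases from compared symbols, the median is 0 copies, and NORAD ranks 3 by their number. Copies lie in close pairs at 3 places, shown here as DNA letters of the transcript, 5′ to 3′, with the elements in capitals.
NORAD bases 1432 to 1468: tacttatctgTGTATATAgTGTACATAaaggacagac
NORAD bases 2629 to 2665: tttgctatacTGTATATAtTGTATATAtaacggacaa
NORAD bases 3265 to 3301: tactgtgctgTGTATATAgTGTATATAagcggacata

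The promoters of 4 long non-coding members are shown because 3 of them (NORAD, CHASERR and LINC00473) are lower non-coding members with a known partner or inducer, and CYTOR is the second most abundant member and stayed within 2-fold. Each is the RefSeq window from 250 bases before to 50 after the annotated start, on GRCh38.p14. Capitals mark the motifs searched on both strands: the cAMP response element TGACGTCA and its core TGACG (contained in the full element), the AP-1 site TGANTCA, the E-box CACGTG, the CCAAT box, the TATA box written as TATAAA and the GC box GGGCGG. The core was added after the sequences were seen. LINC01021 (PURPL), described below, is also a lower non-coding member with a known inducer. Its window held 0 matches to these motifs and is not shown.
LINC00657 (NORAD), chr20:36050911-36051210, minus strand: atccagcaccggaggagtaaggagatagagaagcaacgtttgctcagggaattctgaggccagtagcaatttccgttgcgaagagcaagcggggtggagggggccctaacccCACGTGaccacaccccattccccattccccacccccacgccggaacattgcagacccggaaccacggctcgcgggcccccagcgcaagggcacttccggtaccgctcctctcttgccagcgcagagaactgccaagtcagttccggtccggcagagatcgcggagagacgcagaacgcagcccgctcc
LINC01578 (CHASERR), chr15:92882593-92882892, plus strand: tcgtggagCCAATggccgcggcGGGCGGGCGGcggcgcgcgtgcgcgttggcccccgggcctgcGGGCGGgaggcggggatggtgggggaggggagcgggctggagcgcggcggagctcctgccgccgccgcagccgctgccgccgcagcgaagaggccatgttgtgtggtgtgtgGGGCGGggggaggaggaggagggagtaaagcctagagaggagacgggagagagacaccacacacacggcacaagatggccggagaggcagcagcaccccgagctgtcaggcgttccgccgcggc
LINC00473, chr6:165987990-165988289, minus strand: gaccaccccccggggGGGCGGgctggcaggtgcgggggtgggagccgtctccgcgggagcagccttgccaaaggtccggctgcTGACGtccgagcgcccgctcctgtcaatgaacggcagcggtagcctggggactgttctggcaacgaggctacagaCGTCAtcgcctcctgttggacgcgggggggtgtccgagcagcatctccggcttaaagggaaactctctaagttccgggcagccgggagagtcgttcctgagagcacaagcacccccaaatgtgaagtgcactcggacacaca
LINC00152 (CYTOR), chr2:87455177-87455476, plus strand: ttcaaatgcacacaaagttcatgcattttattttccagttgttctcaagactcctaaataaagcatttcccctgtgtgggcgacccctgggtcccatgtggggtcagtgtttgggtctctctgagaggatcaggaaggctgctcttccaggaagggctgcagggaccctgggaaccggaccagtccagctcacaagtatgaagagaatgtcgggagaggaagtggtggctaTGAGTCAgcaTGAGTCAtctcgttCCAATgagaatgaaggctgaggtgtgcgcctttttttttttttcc

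The LINC00473 window holds 2 core matches and 0 full cAMP response elements. The CYTOR window holds 2 AP-1 sites close together, the CHASERR window 4 GC boxes, and the NORAD window 1 E-box. A promoter window was found for 110 members. An AP-1 site occurred in 10.9% of them against 7.76% of 27305 RefSeq promoters of the same length, a full cAMP response element in 0.909% against 1.98%, the core in 30% against 25% and an E-box in 5.45% against 7.43%. A TATAAA match was present in 12.7% against 12%, CCAAT in 35.5% against 35.7% and a GC box in 46.4% against 44.6%. A match describes the letters and is not evidence of binding.

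The mature microRNAs that give the 2 hosts their names are shown with the seed (bases 2 to 8) in capitals. Their own levels are not measured by counts of polyadenylated 3' ends.
hsa-miR-570-3p, within LINC00969 (MIR570HG), chr3:195699460-195699481, plus strand: cGAAAACAgcaauuaccuuugc
hsa-miR-570-5p, within LINC00969 (MIR570HG), chr3:195699425-195699446, plus strand: aAAGGUAAuugcaguuuuuccc
hsa-miR-924, within LINC00669 (MIR924HG), chr18:39622153-39622172, minus strand: aGAGUCUUgugaugucuugc

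No 2 of these 3 share a seed. Levels below are CPM, counts scaled to the size of each library, with the control given first. LINC00969 had 124 and 108 counts, or 11.3 and 11.6 CPM, so the libraries did not differ beyond counting error (1.02-fold higher, 0.784 to 1.34). LINC00669 had 25 and 6 counts, 3.54-fold lower (1.42 to 10.6). On the log2 scale with 1 CPM added, which draws low levels towards 0, its ratio was -0.997 and fell just short of the 2-fold limit used below. LINC00669 also spans the hairpins of miR-5583, which lie on both strands, and is itself on the strand of miR-924. The strand of LINC00969 was not in the tables used here.

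All 20 genes of a list of microRNA processing factors were within 2-fold, with a median log2 ratio of -0.10 and a range from -0.89 (HNRNPA2B1, an RNA-binding protein linked to primary microRNA processing) to 0.37 (DROSHA). DICER1, which cuts the hairpin in the cytoplasm, had 909 and 539 counts, 1.43-fold lower (1.29 to 1.60). Of 24 compared genes of RNA decay and 3' end processing, 1 was at least 2-fold higher, 1 lower and 22 between, with a median of -0.24. The lower gene was EXOSC3, a subunit of the RNA exosome (158 and 55 counts, 2.44-fold, 1.79 to 3.38), and the higher one CPSF3L, an Integrator subunit (271 and 478 counts, 2.07-fold, 1.78 to 2.42). After centring on 3' GC content, described below, neither reached 2-fold (log2 ratios of -0.85 for EXOSC3 and 0.35 for CPSF3L). The share past 2-fold over the whole set of 13637 compared symbols is 7.85% upward and 10.2% downward.

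The LINC transcripts were a small part of each library. Their summed share was 0.2% in the control and 0.182% after ADGRF4 siRNA. Mean counts ran from 10 to 1949.5 with a median of 41, and 39 members had a mean of at least 100. The 5 most abundant, NORAD, LINC00152 (CYTOR), LINC00173, LINC01296 (DUXAP9) and LINC00106, held 35.3% of the members' counts in the control and 37.7% after ADGRF4 siRNA. In scaled CPM, NORAD was first in the control with 268, followed by CYTOR with 137 and DUXAP9 with 110. After ADGRF4 siRNA the order was CYTOR with 184, LINC00106 with 161 and LINC00173 with 151, and NORAD stood at 103.

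**Figure D1:**
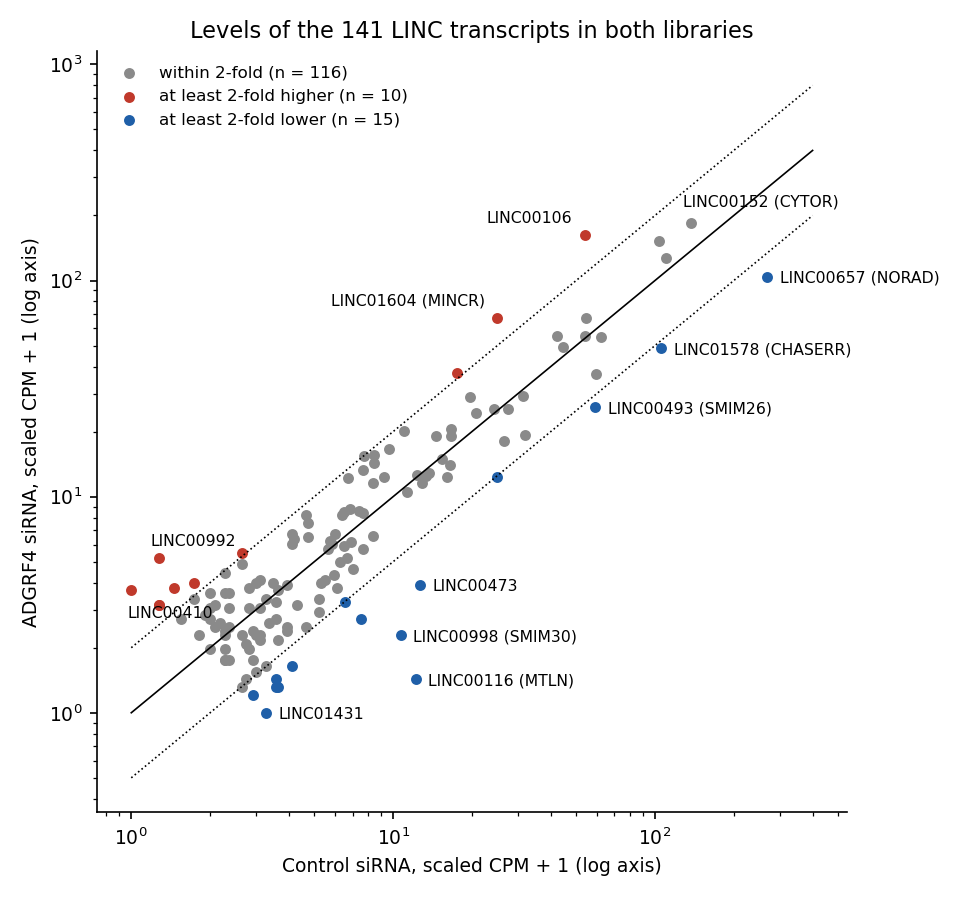
Scaled CPM plus 1 of each LINC transcript in the control siRNA library (horizontal, log axis) and the ADGRF4 siRNA library (vertical, log axis), 1 point per transcript. The solid line marks equal levels and the dotted lines 2-fold differences on this scale: 10 points lie on or above the upper line and 15 on or below the lower one.

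A member was called higher or lower where the ratio of scaled CPM plus 1 reached 2-fold. By this rule 10 of 141 members (7.09%) were higher after ADGRF4 siRNA and 15 (10.6%) lower. Among all 13637 compared symbols the shares were 7.85% higher and 10.2% lower. Members were thus called about as often as other symbols, before the centring on 3' GC content described below. Their median log2 ratio was 0.02, against -0.02 for all compared symbols, and its SD over members was 0.80, against 0.77. Of the 39 members with a mean of at least 100 counts, 3 were higher and 4 lower, against 8.39% and 9.10% of all symbols in that range. Of the 38 with a mean from 30 to under 100, 1 was higher and 5 lower (6.41% and 14.0% of all symbols). Of the 64 below 30 counts, 6 were higher and 6 lower (7.56% and 9.75%).

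**Figure D2:**
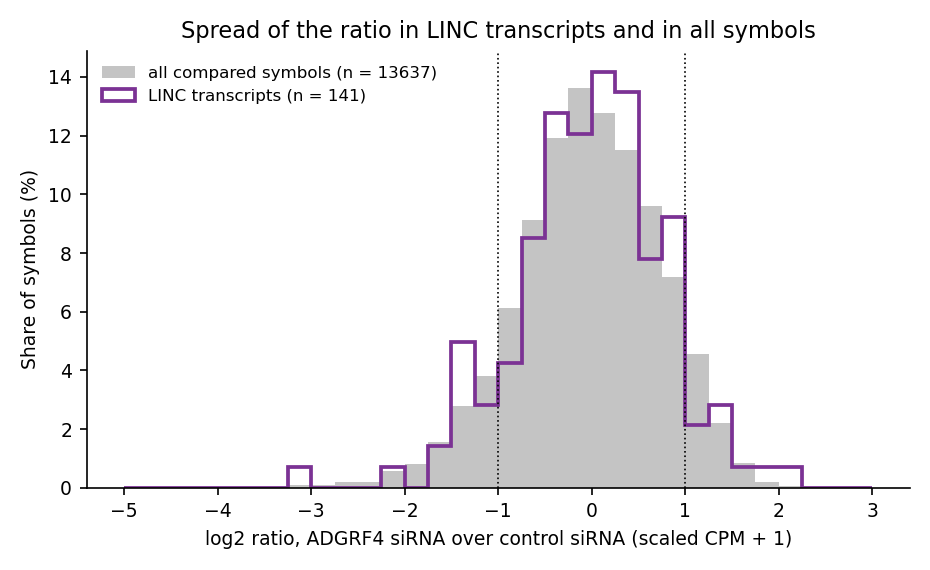
Distribution of the log2 ratio (ADGRF4 siRNA over control siRNA, scaled CPM plus 1) over the 141 LINC transcripts (purple outline) and all 13637 compared symbols (grey), as a percentage of each set in steps of 0.25. Dotted lines mark 2-fold; both sets are centred near 0, with medians of 0.02 and -0.02.

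Non-coding members that were lower include RNAs with known partners. NORAD had 2937 counts in the control and 962 after ADGRF4 siRNA and was 2.60-fold lower (2.41 to 2.80). It had no annotated antisense exon overlap. LINC01578, now CHASERR, is transcribed next to the chromatin remodeler gene CHD2 and is known to restrain its expression. CHASERR had 1150 and 443 counts, 2.21-fold lower (1.98 to 2.47), while CHD2 had 3020 and 2435 counts and differed by 1.05-fold (1.00 to 1.11).

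LINC00473, an RNA induced by cAMP and CREB signalling and abundant in lung cancer cells that lack the kinase LKB1, had 128 and 27 counts, 4.03-fold lower (2.65 to 6.35). LINC01021, now PURPL, which is induced by p53 and lowers basal p53, had 72 and 16 counts, 3.83-fold lower (2.20 to 7.05). The endoderm RNA LINC00261 had 61 and 21 counts, 2.47-fold lower (1.48 to 4.27). Its neighbour FOXA2, a foregut transcription factor, had 1405 and 1135 counts and was within 2-fold. LINC00472 had 263 and 105 counts, 2.13-fold lower (1.69 to 2.70). The intervals of CHASERR, LINC00261 and LINC00472 reached below 2-fold.

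Members that RefSeq now lists as protein-coding, without another row of their own name, numbered 8. Of these, 3 were called lower by 2-fold or more, 5 lay between and 0 were called higher, with a median log2 ratio of -0.27. The share called lower was 37.5% of these 8, against 10.2% of all compared symbols, and 7.85% of all were called higher. LINC00116, now MTLN, encodes mitoregulin, a small protein of the inner mitochondrial membrane. MTLN had 123 counts in the control and 4 after ADGRF4 siRNA, 26.2-fold lower (9.96 to 97.5), the largest fold among members with counts in both libraries. Its annotated exons are overlapped on the other strand by AC140479.4. LINC00998, now SMIM30, a small integral membrane protein, had 106 and 12 counts, 7.51-fold lower (4.13 to 15.0). LINC00493, now SMIM26, a small mitochondrial protein, had 637 and 232 counts, 2.34-fold lower (2.01 to 2.73).

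The other 5 small-protein members stayed within 2-fold. LINC01420, now NBDY, whose product binds the mRNA decapping complex, had 668 and 500 counts, 1.14-fold lower (1.01 to 1.28). LINC00094 (BRD3OS) had 289 and 229 counts, LINC01207 (SMIM31) 62 and 39, and LINC01125 (C2orf92) 14 and 12. LINC00672 (LASP1NB) had 95 and 146 counts, 1.81-fold higher (1.39 to 2.37). After centring on 3' GC content, described below, the log2 ratio of LASP1NB was 1.14, past 2-fold. The 8 thus differed widely among themselves, from -3.10 (MTLN) to 0.79 (LASP1NB) on the log2 scale.

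At a mean of at least 100 counts, 3 of 39 members (7.69%) were called higher, near the 8.39% of all symbols in that range. LINC00106 had 579 counts in the control and 1501 after ADGRF4 siRNA and was 3.05-fold higher (2.77 to 3.36). It appears on 2 rows of the table, as does LINC00685, and both lie in the pseudoautosomal region shared by the X and Y chromosomes. The separate rows of LINC00106 gave ratios of 3.33 (2.90 to 3.85) and 2.80 (2.45 to 3.21). Reads of a shared region may fall on either row, so the rows are not separate measurements and their likeness is no support. LINC00685 was 1.95-fold higher (1.47 to 2.60).

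LINC01604, now MINCR, an RNA induced by MYC, had 263 and 618 counts, 2.76-fold higher (2.39 to 3.20). LINC01089, an RNA repressed by epidermal growth factor in mammary cells, had 181 and 338 counts, 2.20-fold higher (1.83 to 2.65). Its interval reached below 2-fold, and its log2 ratio was 0.53 after the centring on 3' GC content described below. It shares exon bases on the same strand with RHOF, so some of its reads may belong to RHOF. LINC00337 (ICMT-DT) had 18 and 42 counts, 2.74-fold higher (1.55 to 5.06), and its exons are overlapped on the other strand by ICMT. LINC00339 fell just short of the call, with 74 and 134 counts and a log2 ratio of 0.99. Its exons are also overlapped on the other strand.

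**Figure D3:**
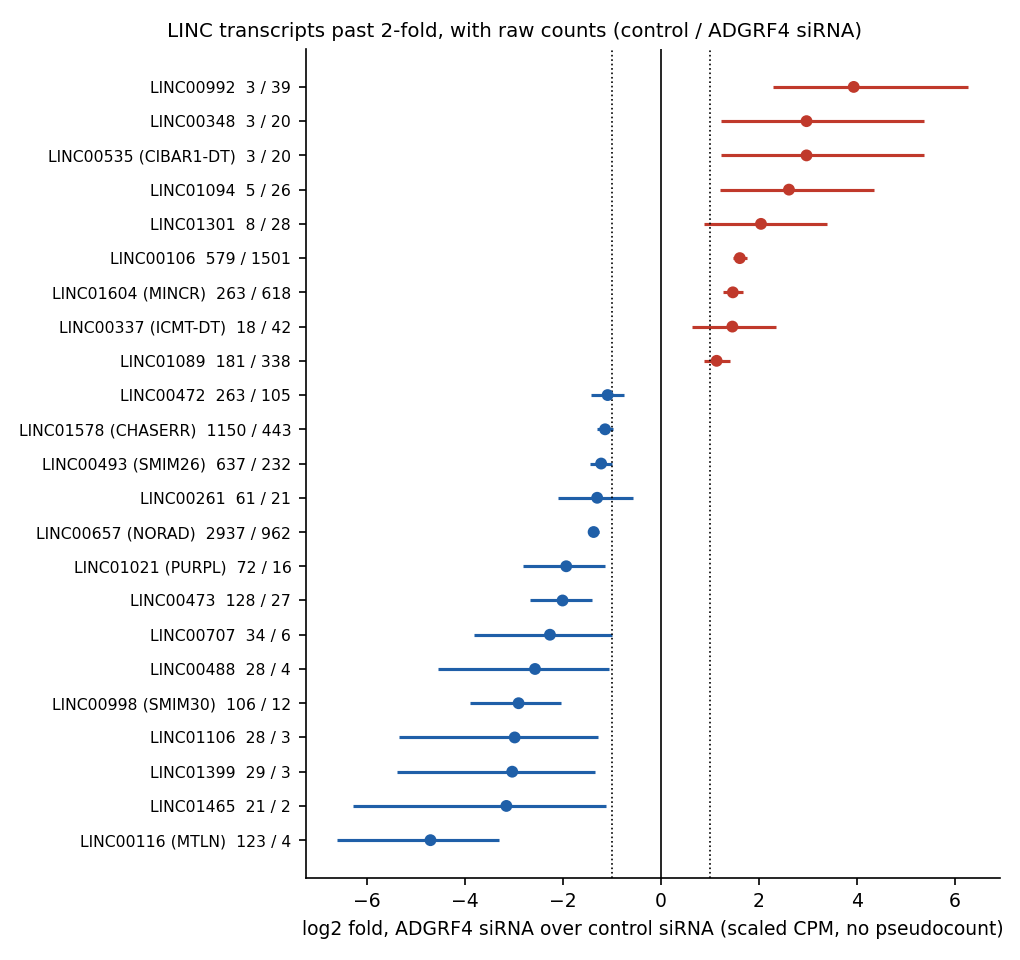
log2 fold of scaled CPM without a pseudocount (points) with its exact 95% counting interval (bars) for the 23 LINC transcripts past 2-fold that had counts in both libraries; the numbers beside each name are raw counts in the control and the ADGRF4 siRNA library. Well-read transcripts such as LINC00657 (NORAD) have short bars, and those with 2 to 4 counts in one library have bars that span several log2 units.

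Of the 25 called members, 19 had a counting interval that also lay past 2-fold, 7 higher and 12 lower. The shares of the 141 are 4.96% and 8.51%, against 4% and 6.31% of all compared symbols. Among the 12 members with a mean under 30 counts that were called, 2 had a count of 0 in one library. LINC00410 had 0 and 25 counts and was at least 9.80-fold higher, taking 3 counts for the 0. LINC01431 had 25 and 0 counts and was at least 7.09-fold lower on the same basis. LINC00992 had 3 and 39 counts (15.3-fold higher, 4.86 to 77.3), and LINC00348 and LINC00535 (CIBAR1-DT) each had 3 and 20 (7.84-fold higher, 2.33 to 41.2). LINC01094 had 5 and 26 counts (6.11-fold higher, 2.31 to 20.39), and LINC01301 8 and 28 (4.12-fold higher, 1.83 to 10.45). The interval of LINC01301 reached below 2-fold. On the lower side were LINC01465 (21 and 2 counts), LINC01399 (29 and 3), LINC01106 (28 and 3), LINC00488 (28 and 4) and LINC00707 (34 and 6), from 4.82-fold to 8.93-fold lower. These rest on few counts.

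Of the 39 members with a mean of at least 100 counts, 32 (82.1%) were not called, with log2 ratios from -0.72 to 0.99. The share among all symbols in that range was 82.5%. CYTOR, a cytoplasmic RNA studied in tumour growth, had 1498 and 1712 counts, 1.34-fold higher (1.25 to 1.44). Its exons are overlapped by AC133644.3 on the same strand and by LINC01943 on the other. The handling of reads that match several places is not stated, so the counts of CYTOR are uncertain too. LINC00173 had 1124 and 1411 counts, 1.48-fold higher (1.36 to 1.60). LINC01296 (DUXAP9) had 1201 and 1172 counts, 1.15-fold higher (1.06 to 1.25). It belongs to a family of near-identical pseudogenes, so its counts are uncertain.

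LINC00674 had 589 and 616 counts, LINC00342 579 and 508, LINC00987 454 and 507, and LINC01234 478 and 450, all within 1.5-fold. LINC00467 had 642 and 335 counts, 1.63-fold lower (1.43 to 1.87), and LINC01184 (SLC12A2-DT) had 338 and 171 and was 1.68-fold lower (1.40 to 2.03). LINC00997 was 1.49-fold lower and LINC01278 1.504-fold higher. LINC01279, within the merged CCDC80 gene, had 110 and 179 counts (1.91-fold higher, 1.501 to 2.45).

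The other abundant members were also within 2-fold. LINC01004 had 332 and 263 counts, LINC00623 256 and 228, LINC00842 216 and 217, LINC01589 172 and 182, LINC01573 (NALT1) 172 and 168, and LINC00294 149 and 168. LINC01000 had 170 and 121, LINC00888 (SNHG33) 158 and 130, LINC00641 165 and 105, LINC00869 140 and 110, and LINC01521 136 and 107. LINC00857 had 130 and 98 and LINC00673, an RNA linked to turnover of the phosphatase PTPN11, had 113 and 89. LINC01389 had 82 and 124 counts, 1.78-fold higher (1.33 to 2.38).

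Among members with a mean from 30 to under 100 counts, 32 of 38 were not called, with log2 ratios from -0.83 (LINC01011, 46 and 18 counts) to 0.85 (LINC01023, 63 and 104). LINC01569 (40 and 67 counts) and LINC01123 (73 and 115) were 1.97-fold and 1.85-fold higher. Among the 64 below 30 counts, 52 were not called, with log2 ratios from -0.999 to 0.96 after 1 CPM was added. Without that addition 15 of the 52 were past 2-fold, but the counting interval lay past 2-fold for 0 of them.

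Of the nearest protein-coding genes of called members, 3 of the 19 compared were past 2-fold. The nearest protein-coding gene in GENCODE 29 with a row in the count table was itself compared for 19 of the 25. It need not be adjacent: the gap ran from 0 bases (RHOF and LINC01089) to 840600 bases (SEMA6A and LINC00992). Beside the 10 lower members with such a neighbour, 0 neighbours were past 2-fold in either direction, with a median log2 ratio of -0.08. Beside the 9 higher members, 2 neighbours were higher and 1 lower, with a median of -0.33. The 2 are GLI4 beside MINCR (54 and 127 counts, 2.77-fold higher, 1.996 to 3.88) and RHOF beside LINC01089 (970 and 2359 counts, 2.86-fold higher, 2.65 to 3.09). The lower one is RBM12B, 28920 bases from LINC00535 (325 and 130 counts, 2.13-fold lower, 1.73 to 2.63). The exons of LINC00535 are overlapped on the other strand by FAM92A, so RBM12B is not its adjacent gene. RHOF shares exon bases with LINC01089 on the same strand, so reads of one may be counted for the other and it is no separate neighbour. After centring on 3' GC content none of the 3 reached 2-fold (GLI4 0.49, RHOF 0.94 and RBM12B -0.69 on the log2 scale). SLC25A6, near LINC00106, had 9154 and 14132 counts, 1.81-fold higher (1.77 to 1.86). For comparison, 7.85% of all compared symbols were higher and 10.2% lower.

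**Figure D4:**
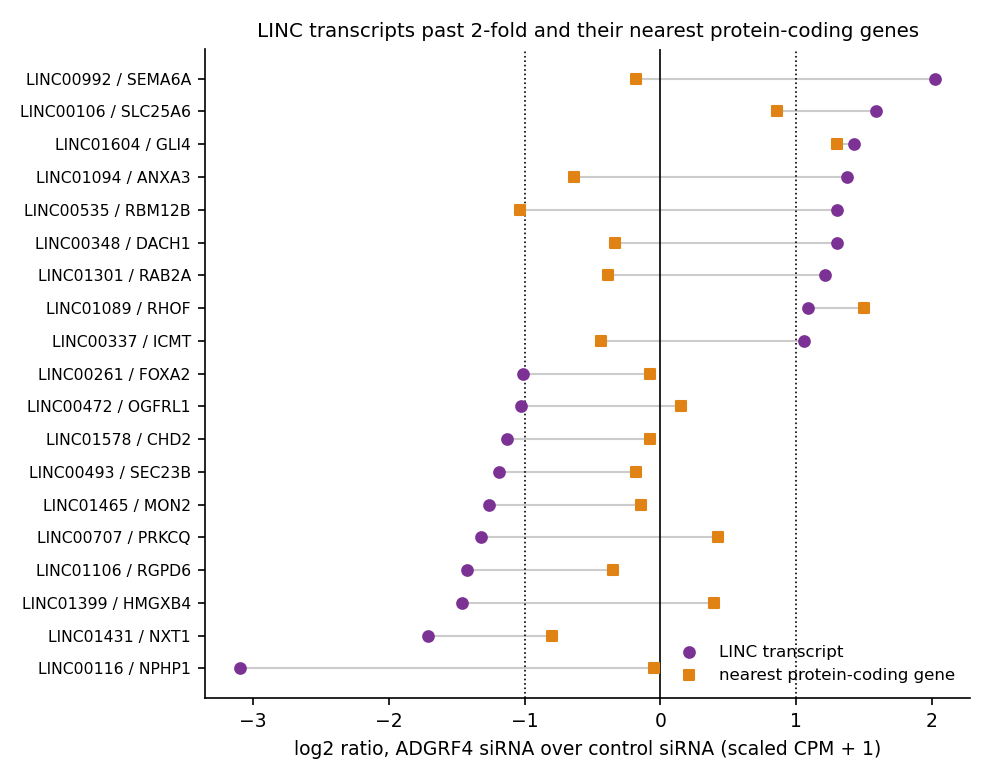
log2 ratio (ADGRF4 siRNA over control siRNA, scaled CPM plus 1) of the 19 called LINC transcripts with a compared neighbour (circles) and of the nearest protein-coding gene (squares), 1 pair per row. Dotted lines mark 2-fold; GLI4 and RHOF are the 2 neighbours past 2-fold on the side of their LINC transcript, and RHOF shares exon bases with LINC01089.

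A start up to 1000 bases from a protein-coding start on the other strand, with at most a short overlap, was found for 15 members. Only partners with a row in the count table were considered. Of the 15, 2 were higher, 0 lower and 13 between, with a median log2 ratio of 0.19, which was -0.05 after centring on 3' GC content. The 15 leave out LINC00337 (ICMT-DT), LINC00535 (CIBAR1-DT) and LINC00893 (EOLA1-DT), which RefSeq names as divergent transcripts. LINC00337 and LINC00535 were called higher and LINC00893 was not called. Exons overlapped by another gene on the other strand were annotated for 47 of 127 members with a GENCODE 29 transcript. Of the 47, 3 were higher and 3 lower, and of the 80 without such overlap 7 were higher and 11 lower. Over all compared symbols 7.85% were higher and 10.2% lower, against 6.38% each with overlap, 8.75% and 13.8% without it, and 13.3% and 0% of those 15. Exons shared with another gene on the same strand were annotated for 21 members, of which LINC01089 was higher and CHASERR, LINC00261, LINC00472, SMIM26 and LINC00707 were lower. The strand setting of the counting is not given in the sources used here, so reads of members overlapped on either strand may belong to the partner.

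The ratio moved with the base composition of the 3' end in these libraries. A GC value for the 3'-most 300 bases of the longest annotated transcript was available for 127 members (90.1%), with a median of 40% against 40.3% for all compared symbols. In the class of lowest GC content, with an upper edge of 35%, the median log2 ratio was -0.31 for all symbols and -0.10 for the 43 members there. In the class of highest GC content, from 47%, it was 0.48 for all symbols and 0.19 for 41 members. In the lowest class, 6.98% of members were at least 2-fold higher against 1.55% of all symbols, and 14% of both were lower. In the highest class, 9.76% of members were higher against 18.3% of all symbols, and 9.76% were lower against 5.2%.

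After each ratio was centred on symbols of like 3' GC content, 18 of the 24 called members with a value stayed past 2-fold. Of the 127 members, 7.87% were then higher and 13.4% lower, against 4.15% and 9.04% of all symbols with a value. Both member shares were thus above those of all symbols, unlike the near-equal shares before centring, and this difference was not tested. Members called only after centring were LINC00339 (1.25), LINC00672 (LASP1NB, 1.14) and LINC01006 (1.10) on the higher side. On the lower side they were LINC00265 (-1.81), LINC01001 (-1.78), LINC01002 (-1.25), LINC01322 (-1.05), LINC01503 (-1.04) and LINC00618 (-1.02). The 6 called members that came under 2-fold were CHASERR (-0.88), LINC00472 (-0.79), LINC00261 (-0.75), LINC00106 (0.92), LINC01089 (0.53) and LINC00337 (0.59). NORAD stood at -1.07, MTLN at -3.57, SMIM30 at -1.87, SMIM26 at -1.53, PURPL at -1.24 and MINCR at 1.54. LINC00473 had no value. Whether base composition has a part in the difference of any member was not tested.

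**Figure D5:**
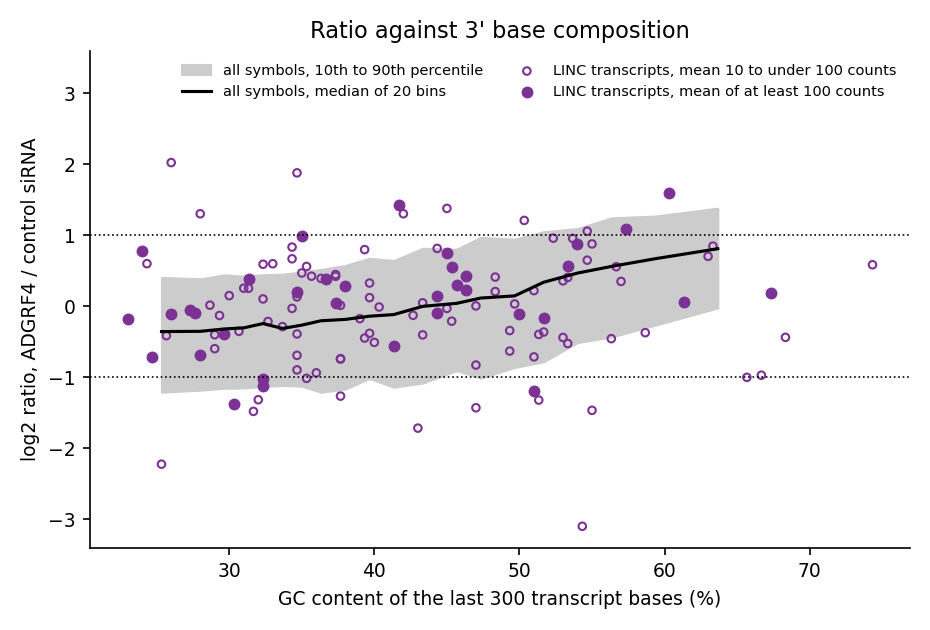
log2 ratio (ADGRF4 siRNA over control siRNA, scaled CPM plus 1) against the GC content (%) of the last 300 transcript bases. Purple circles are the 127 LINC transcripts with a value (filled, mean of at least 100 counts), the line is the median of all symbols in 20 bins and the grey band their 10th to 90th percentile: the line runs from below 0 to above 0, and members lie on both sides of it.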

How the data were processed

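Per the labels' protocols, total RNA (500 ng) was made into Lexogen QuantSeq libraries, which prime on the poly(A) tail. The deposited values are raw counts for each symbol, as whole numbers. The submitters' processing notes name Bowtie2, edgeR and build hg19. What each tool did, the annotation and the handling of strand are not stated there. Rows of 1 symbol were summed (3 members had several). Library sizes were adjusted by TMM (edgeR 4.0.16, R 4.3.3) over symbols that averaged 10 counts or more. log2 ratios used CPM plus 1; printed folds use CPM without it, with Clopper-Pearson 95% intervals, which cover counting error only. Calculations used Python 3.11.15 and scipy 1.17.1, tested on simulated counts.

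Members and lists were chosen with earlier results of these data known. The rule named microRNA hosts, members with a mean of at least 100 counts, the 12 highest and 12 lowest ratios from a mean of 30, symbols beside the limit, ADGRF4, list genes past 2-fold, and neighbours of members past 2-fold. Called members under 30 counts, LINC01207, LINC01125, LINC00950, DROSHA, DICER1 and HNRNPA2B1 fall outside it and were chosen after their values were seen. The same holds for LINC00618, LINC00893, LINC01001, LINC01002, LINC01006, LINC01322 and LINC01503. GENCODE 29 and RefSeq (GRCh38) served for names, neighbours and sequences only, by symbol or older symbol.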

Additional observations from a re-analysis of the deposited data

How the results depend on the processing

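With no replicate of either treatment, no result has a test to lose. No paired analysis was possible because each treatment had 1 library. With total-count scaling the members' median log2 ratio was -0.10 instead of 0.02, and that of all compared symbols -0.16 instead of -0.02. DESeq2 (1.42.0) size factors, upper-quartile scaling and thinning of the control library kept all 25 called members. Total-count scaling lost LINC00337 and LINC01089. Taking the highest row of each symbol could alter only LINC00106 among the called members, and it stayed past 2-fold. No called member changed direction under these alternatives, other pseudocounts or centring on 3' GC content. A pseudocount cannot reverse a ratio, and the shifts from scaling and centring were under 2-fold. The kept directions are therefore no support. The counts of called members followed the definition of a call. With a pseudocount of 0.1 CPM, 16 were higher and 24 lower (11.3% and 17%, against 10.3% and 12.9% of all compared symbols), and with 5 CPM 2 and 6 (1.42% and 4.26%, against 3.95% and 5.1%). From a mean of 30 counts they were 4 and 9 of 77 members (5.19% and 11.7%, against 7.9% and 10.3% of all such symbols). From 100 counts they were 3 and 4 of 39 members (7.69% and 10.3%, against 8.39% and 9.1%). At 1.5-fold, 30 were higher and 30 lower (21.3% each, against 21.1% and 22.3%). At 4-fold, 1 was higher and 2 lower (0.709% and 1.42%, against 0.066% and 1.25%). Depth limits members under 30 counts most, since a few counts decide their ratio.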
